A study of Mus musculus with 6 samples.

Results

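Mutations in a set of genes that act on actin or on the signals that organise it cause inherited nephrotic syndrome or focal segmental glomerulosclerosis, diseases in which podocytes lose their shape and the kidney filter leaks protein. The 10 listed genes of this kind, Plce1, Myo1e, Actn4, Inf2, Anln, Arhgap24, Arhgdia, Fat1, Itsn1 and Itsn2, were followed in cultured mouse podocytes with and without the adaptor proteins Nck1 and Nck2. Of these, 9 had a probe set whose only platform symbol was that gene, out of 30063 genes with such a probe set, and Arhgdia was not analysed here. Each of the 9 had a single probe set.

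The cells were conditionally immortalized mouse podocyte lines, which grow in a permissive state and differentiate when it is withdrawn. Cells spent 10 days differentiating on a type I collagen coat before total RNA was prepared. The wildtype line and the NCK1/2 knockout line, labelled as lacking both Nck1 and Nck2, were each profiled on 3 Affymetrix arrays described as independent replicates. Each genotype was represented by 1 line, so genotype and line cannot be told apart, and the p-values measure the spread between replicates of those lines. Values are log2 intensities, and a log2 difference of 1 is a doubling. They are compared between the lines for the same gene and never between genes, because probes differ in brightness.

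A podocyte wraps the glomerular capillary with foot processes whose actin bundles are tied to the slit diaphragm and to the basement membrane. Small GTPases such as Rac1 and Cdc42 switch actin assembly and contraction. Exchange factors turn them on, GTPase-activating proteins turn them off, and dissociation inhibitors hold them in the cytosol. Formins and the Arp2/3 complex build filaments, actinins and filamins crosslink them, and myosins pull on them or on membranes. Nck adaptors connect phosphorylated nephrin to this machinery.

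Among the measured disease genes, Plce1 rose most in knockout, by 3.12 on the log2 scale (8.72-fold), followed by Myo1e at 0.84, Actn4 at 0.61 and Fat1 at 0.53. Arhgap24 fell by 0.79. Inf2, Anln, Itsn1 and Itsn2 did not pass the test. Thus 4 of 9 were higher and 1 of 9 lower (limma, adjusted p under 0.05 by Benjamini-Hochberg over all genes), where 5.12% of all 30063 genes were called higher, 7.00% lower and 12.1% in either direction. The groups of 3 arrays did not overlap for 5 of the 9 genes, against 27.5% of all genes. At an unadjusted p under 0.05, 5 of the 9 differed, against 23.3% of all genes. Brighter genes were called more often. Among the 11203 genes with a mean above the background range of the array, 10.2% were called higher, 13.7% lower and 23.9% either way, and 50.4% did not overlap. Of the 9 genes, 8 had both group means above that range, and Plce1 passed it by its knockout arrays alone, so the members' counts are not read against these shares. The median log2 difference of the 9 genes was 0.13, that of all genes 0.01.

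**Figure D1:**
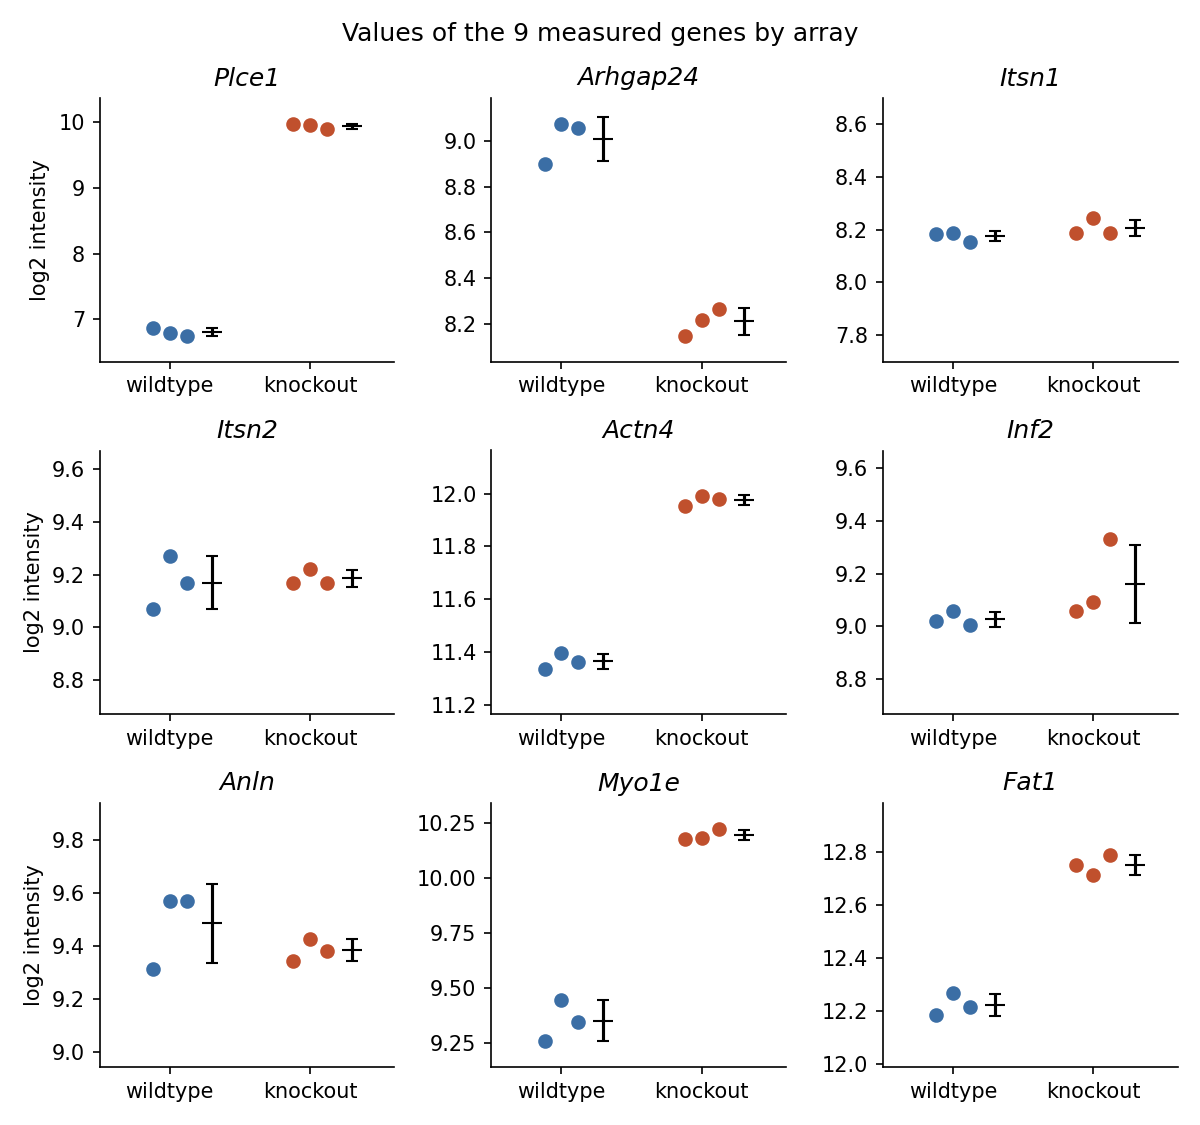
Each panel plots the log2 intensity of 1 gene (y axis, own range per panel) on the 3 wildtype arrays (blue) and 3 knockout arrays (red), with the mean and SD of each group as a black bar. The groups are apart for Plce1, Arhgap24, Actn4, Myo1e and Fat1 and overlap for Itsn1, Itsn2, Inf2 and Anln.

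**Figure D2:**
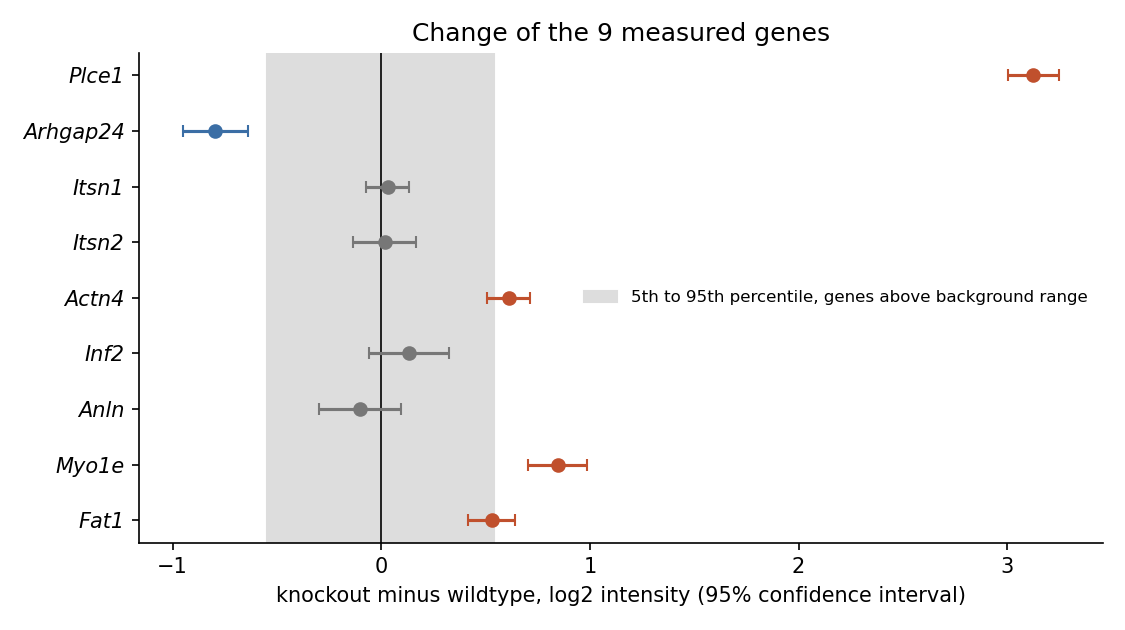
Knockout minus wildtype difference in log2 intensity (x axis) for each of the 9 genes (y axis), with its 95% confidence interval from limma; red and blue mark genes called higher and lower, and the grey band spans the 5th to the 95th percentile of the 11203 genes above the background range, from -0.55 to 0.54. Plce1 lies at 3.12, and the intervals of the 4 grey genes include 0. Plce1 is above the background range by its knockout arrays alone, so its place is not read against the band. Over all 30063 genes the same percentiles were -0.39 and 0.36.

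The DNA just upstream of the members that rose together is shown so that the sequences can be set beside the measurements. RefSeq windows of the 250 bases before a listed transcript start (assembly GRCm38.p6) were found for 9 of the 10 genes; Arhgap24 had no entry. They were searched on both strands for the TEAD site GGAATG, the AP-1 site TGANTCA and the CArG box bound by serum response factor. The TEAD site and the CArG box are read by factors that respond to the state of actin. Matches are in capitals. The windows of Plce1, Myo1e, Actn4 and Fat1 are shown as the genes that rose, and that of Inf2, which did not pass, because it held the most matches:
Plce1: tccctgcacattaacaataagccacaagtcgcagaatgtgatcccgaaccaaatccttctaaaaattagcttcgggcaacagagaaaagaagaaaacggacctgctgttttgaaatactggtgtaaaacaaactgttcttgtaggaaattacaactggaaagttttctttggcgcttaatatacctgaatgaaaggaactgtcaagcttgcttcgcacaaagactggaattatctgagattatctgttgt
Myo1e: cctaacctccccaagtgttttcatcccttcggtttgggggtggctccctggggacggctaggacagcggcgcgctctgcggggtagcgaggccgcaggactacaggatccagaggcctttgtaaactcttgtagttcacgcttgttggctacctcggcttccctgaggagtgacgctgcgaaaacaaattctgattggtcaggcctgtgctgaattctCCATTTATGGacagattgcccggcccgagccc
Actn4: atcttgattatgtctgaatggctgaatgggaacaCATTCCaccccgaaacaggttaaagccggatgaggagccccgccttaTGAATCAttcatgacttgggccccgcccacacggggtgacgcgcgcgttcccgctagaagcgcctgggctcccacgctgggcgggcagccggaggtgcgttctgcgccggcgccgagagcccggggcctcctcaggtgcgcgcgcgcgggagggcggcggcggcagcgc
Fat1: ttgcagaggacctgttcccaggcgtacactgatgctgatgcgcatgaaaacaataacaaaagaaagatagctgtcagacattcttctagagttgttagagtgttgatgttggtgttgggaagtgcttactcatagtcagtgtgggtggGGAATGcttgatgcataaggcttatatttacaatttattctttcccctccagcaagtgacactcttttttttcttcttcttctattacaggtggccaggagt
Inf2: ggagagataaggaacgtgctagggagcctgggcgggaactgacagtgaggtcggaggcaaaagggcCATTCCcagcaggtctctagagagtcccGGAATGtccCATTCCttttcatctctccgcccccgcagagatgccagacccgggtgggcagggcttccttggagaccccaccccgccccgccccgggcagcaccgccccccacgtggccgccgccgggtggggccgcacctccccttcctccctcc

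These windows lie at chr19:38523947-38524196 (plus strand) for Plce1, chr9:70207100-70207349 (plus) for Myo1e, chr7:28962333-28962582 (minus) for Actn4, chr8:44949958-44950207 (plus) for Fat1 and chr12:112588517-112588766 (plus) for Inf2. The starts used for Plce1 and Fat1 lie 43163 and 17108 bases inside the span of the gene, so these are windows of inner starts and not of the outermost one. The Myo1e window held 1 CArG box with its first base 32 bases before the start, a motif found in 1.47% of 32851 windows. Actn4 held 1 TEAD site and 1 AP-1 site, Fat1 held 1 TEAD site and Inf2 held 3, where 12.6% of all windows had a TEAD site and 6.75% an AP-1 site. Plce1, the gene with the largest rise, had no match, nor had Anln, Itsn1, Itsn2 or Arhgdia. No 2 matches overlapped. The windows of Plce1 and Fat1 were 38.8% and 42.0% G and C, that of Actn4 67.6%, and the median of all windows was 52.4%. A match describes the letters only and is not a measured binding site.

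Plce1 (probe set TC1900000552.mm.1, chromosome 19) encodes phospholipase C epsilon, an enzyme that cleaves a membrane phosphoinositide into second messengers and is controlled by small GTPases such as Ras and Rap. Its recessive mutations cause nephrotic syndrome in early childhood. Its log2 intensities were 6.87, 6.80 and 6.76 on the wildtype arrays and 9.96, 9.95 and 9.89 on the knockout arrays. All 3 knockout values lay 3.02 or more above all 3 wildtype values, and the SD within a group was 0.06 or less. The means were 6.81 ± 0.06 and 9.93 ± 0.04 (SD, n = 3 each), which differ by 3.12 on the log2 scale (SE 0.05, limma adjusted p = 2.13e-06). Counting Plce1 itself, 26 of the 30063 genes, or 0.0865%, had a rise as large. The wildtype mean was no higher than the brightest of the background probe sets, at 7.78, so the wildtype level was not separated from background, and the fold of 8.72 is one of measured intensities.

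Other phospholipases C were called in both directions. Of 12 other isozymes measured, 2 rose, 4 fell and the other 6 were not called (median -0.05 beside 0.01 for all genes). The called isozymes were thus 6 of 12, beside 12.1% of all genes and 23.9% of genes above the background range. Plcb1 and Plcb3, isozymes driven by G protein-coupled receptors, rose by 0.50 (SE 0.09) and 0.41 (SE 0.05). Their relative Plcb4 fell by 0.84 (SE 0.11), and Plch1, of the eta class, by 0.94 (SE 0.12), its knockout mean being within the background range. The call of Plcb1 was lost without wildtype replicate 3 or knockout replicate 2 (limma adjusted p of 0.0665 and 0.0548), and the number of other isozymes called higher was then as low as 1. The 6 that did not pass ran from -0.13 to -0.002. Of 13 measured regulators of phospholipase C epsilon, 2 rose, 1 fell and 10 were not called. Their called share was 23.1%, beside 12.1% of all genes and 23.9% of genes above the background range. The GTPase genes Rhob and Rhoa rose by 0.66 (SE 0.09) and 0.34 (SE 0.04), and Rapgef3, which encodes the cAMP-activated Rap exchange factor Epac1, fell by 0.39 (SE 0.05).

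Arhgap24 (probe set TC0500000997.mm.1, chromosome 5) encodes FilGAP, a filamin-binding protein that switches off Rac1 and has been found mutated in familial focal segmental glomerulosclerosis. It was the 1 member lower in knockout. Its values were 8.90, 9.07 and 9.06 in wildtype and 8.15, 8.22 and 8.27 in knockout, with a gap of 0.63 between the groups. The means were 9.01 ± 0.10 and 8.21 ± 0.06 (SD, n = 3), so knockout minus wildtype was -0.79 on the log2 scale (SE 0.06, limma adjusted p = 0.000661), or 1.73-fold less. Counting it, 1.22% of all genes had a fall as large. Both means were above the background range.

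Neither paralog passed the test. The genes Arhgap22 and Arhgap25 differed by 0.07 (95% confidence interval -0.05 to 0.19) and 0.03 (-0.15 to 0.20), with both means in the background range. Among the filamins, the partners of FilGAP, Flna rose by 0.36 (SE 0.05) and Flnc, the muscle-enriched form, fell from 10.71 ± 0.07 to 10.06 ± 0.10 (log2 fold change -0.65, SE 0.07).

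Arhgdia, the dissociation inhibitor of the set, was not measured. Of its family, Arhgdib was at 7.18, 7.18 and 7.12 in wildtype and 7.27, 7.35 and 7.49 in knockout. The groups did not overlap, yet the difference of 0.21 (95% confidence interval 0.05 to 0.38) missed the threshold (limma adjusted p = 0.102), and both means were within the background range.

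Itsn1 (TC1600001011.mm.1, chromosome 16) and Itsn2 (TC1200000029.mm.1, chromosome 12) encode intersectins, scaffolds of endocytosis that also carry an exchange factor domain for Cdc42. Itsn1 was at 8.18, 8.19 and 8.15 in wildtype and 8.19, 8.24 and 8.19 in knockout, and Itsn2 at 9.07, 9.27 and 9.17 and at 9.17, 9.22 and 9.17. The groups overlapped for both genes. The differences were 0.03 (95% confidence interval -0.07 to 0.13; limma adjusted p = 0.802) and 0.02 (-0.13 to 0.17; adjusted p = 0.95). The intervals thus reach no further than 0.17 in either direction. Each gene had 4 distinct values among 6 arrays, and equal values on arrays of a group make the measured spread smaller. Relative to the median of chromosome 16, which was -0.12, Itsn1 was at 0.15 (limma adjusted p = 0.0658).

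Genes around the intersectins were called in both directions. Of 18 partners in endocytosis and signalling, 3 rose, 1 fell and the other 14 were not called (median -0.03). Their called share was 22.2%, beside 12.1% of all genes and 23.9% of genes above the background range. Epn2, which encodes an epsin of clathrin-coated pits, fell from 9.16 ± 0.09 to 8.63 ± 0.02. Cbl, which encodes a ubiquitin ligase, rose by 0.41 (SE 0.08), and the dynamin genes Dnm1 and Dnm2, whose products cut vesicles free and also bind myosin 1e, by 0.28 (SE 0.07) and 0.27 (SE 0.06). These 3 rises were not stable. Dnm1 lost its call without any 1 of the 6 arrays (limma adjusted p from 0.0587 to 0.152), Dnm2 without any but wildtype replicate 2 (0.0527 to 0.113) and Cbl without wildtype replicate 3 or any knockout replicate (0.0562 to 0.0824), so that the count of 3 fell to 0 without wildtype replicate 3. Of 15 other exchange factors that can act on Cdc42, 4 rose, none fell by limma and 11 were not called. That is 26.7% called, beside the same 12.1% of all genes and 23.9% of genes above the background range. At an unadjusted p under 0.05, 1 of the 15 was lower. Fgd6 and Dock8 rose by 0.81 (SE 0.10) and 0.71 (SE 0.08) from wildtype means within the background range. Fgd3 and Plekhg2 rose by 0.30 (SE 0.05) and 0.24 (SE 0.05), calls lost without wildtype replicate 3 or knockout replicate 1 or 2 for Fgd3 (0.0634 to 0.0696) and without any but wildtype replicate 2 for Plekhg2 (0.0538 to 0.114), and the count was 2 without wildtype replicate 3.

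Actn4 (TC0700002708.mm.1, chromosome 7) encodes alpha-actinin-4, the crosslinker of actin bundles in foot processes, whose dominant mutations cause focal segmental glomerulosclerosis. Its values were 11.34, 11.39 and 11.36 in wildtype and 11.95, 11.99 and 11.98 in knockout. The SDs within the groups were 0.03 and 0.02, and the groups were 0.56 apart. The means were 11.36 ± 0.03 and 11.97 ± 0.02 (SD, n = 3), so knockout minus wildtype was 0.61 on the log2 scale (SE 0.04, limma adjusted p = 0.000341), or 1.53-fold. A rise as large was seen in 2.17% of all genes.

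Genes listed with the crosslinkers and bundlers of actin, LIM-domain genes among them, gave calls mostly in the same direction. Of 14 measured beside Actn4, 7 rose, 1 fell and the other 6 were not called. Their called share was 57.1%, beside 12.1% of all genes and 23.9% of genes above the background range. The median was 0.28 beside 0.01 for all genes, and 7 rose without any 1 array. The paralog Actn1, the other alpha-actinin of nonmuscle cells, was at 10.92, 10.95 and 10.99 in wildtype and 11.65, 11.62 and 11.73 in knockout, a rise of 0.72 (SE 0.05, limma adjusted p = 0.000333). The muscle actinin genes Actn2 and Actn3 differed by 0.10 each and did not pass, with both means in the background range. The largest rises were in the LIM-domain genes Pdlim1, from 8.19 ± 0.05 to 9.90 ± 0.28, and Pdlim5, from 9.13 ± 0.10 to 10.56 ± 0.12, in the bundling protein gene Fscn1, which encodes fascin, from 9.36 ± 0.03 to 10.85 ± 0.14, and in Lima1, by 1.37 (SE 0.06). Knockout replicate 3 stood apart for Pdlim1, at 10.23 against 9.73 and 9.75. The gene that fell was Flnc, described above.

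Inf2 (TC1200001261.mm.1, chromosome 12) encodes a formin that both polymerises and severs actin and is mutated in dominant focal segmental glomerulosclerosis. Its values were 9.02, 9.06 and 9.00 in wildtype and 9.06, 9.09 and 9.33 in knockout. Knockout replicate 3 lay above all the other arrays, and the lowest knockout value met the highest wildtype value. The difference was 0.13 (95% confidence interval -0.06 to 0.32; limma adjusted p = 0.424), and it was 0.05 without knockout replicate 3 (limma adjusted p = 0.741). Other formins differed among themselves. Of 11 measured, 2 rose, 2 fell and 7 were not called. Their called share was 36.4%, beside 12.1% of all genes and 23.9% of genes above the background range. Fhod3, the sarcomere-associated formin, fell from 10.04 ± 0.10 to 8.32 ± 0.04. The X-linked Diaph2 fell by 0.65 (SE 0.08). The median over 292 X-linked protein-coding genes at or above the median level was itself -0.22. Fmnl2, a formin of the cell front, rose from 8.17 ± 0.16 to 8.88 ± 0.03. Daam1, of Wnt signalling to actin, rose by 0.44 (SE 0.10), a call lost without wildtype replicate 1 or 3 or knockout replicate 1 or 2 (limma adjusted p from 0.0921 to 0.124), so that the number of formins that rose was as low as 1. Of 10 genes whose products bind INF2 or share its work on actin, 4 rose, 1 fell and 5 were not called. The called genes were thus 5 of 10, beside 12.1% of all genes and 23.9% of genes above the background range. Among those that rose was Kank1, itself a nephrotic syndrome gene, from 7.51 ± 0.07 within the background range to 8.66 ± 0.04. Cap1 and Cap2, which recycle actin monomers, rose by 0.66 (SE 0.05) and 0.80 (SE 0.10), Cap2 from within the background range. The profilin gene Pfn2 was the 1 that fell, by 0.34 (SE 0.07), and no gene of this list was called lower without any 1 array but knockout replicate 3.

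Anln (TC0900001908.mm.1, chromosome 9) encodes anillin, a scaffold of actin, myosin and septins at the cleavage furrow of dividing cells, and is mutated in dominant focal segmental glomerulosclerosis. Its values were 9.31, 9.57 and 9.57 in wildtype and 9.34, 9.43 and 9.38 in knockout. Wildtype replicate 1 lay below all knockout values and the other wildtype arrays above them. The difference was -0.10 (95% confidence interval -0.30 to 0.10; limma adjusted p = 0.596). Without wildtype replicate 1 it was -0.19 (adjusted p = 0.0561), and without wildtype replicate 3 it was -0.06 (adjusted p = 0.857). Genes of cytokinesis and cell division were called in both directions. Of 16 other anillin partners and cytokinesis genes, 2 rose, 2 fell and 12 were not called (25.0% called, median -0.05). The mean log2 level of the list with Anln ran from 9.07 to 9.17 over wildtype arrays and from 9.08 to 9.14 over knockout arrays. Of 19 genes of dividing cells, 2 rose, 1 fell and 16 were not called (15.8% called, median -0.04). Beside these shares, 12.1% of all genes and 23.9% of genes above the background range were called. Those called in these lists besides Rhoa were Septin6 (0.27), Aurkb (-0.22), Cenpa (-0.17), Top2a (-0.43), Mcm2 (0.23) and Mcm5 (0.19). Each of the 6 lost its call without at least 4 of the 6 arrays left out in turn (limma adjusted p from 0.0511 to 0.171), including wildtype replicate 3 and knockout replicates 1 and 2 for all of them.

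Myo1e (TC0900000927.mm.1, chromosome 9) encodes a class I myosin that links actin to membranes at the slit diaphragm and in endocytosis, and its recessive mutations cause childhood nephrotic syndrome. Its values were 9.26, 9.45 and 9.34 in wildtype and 10.18, 10.18 and 10.22 in knockout. The groups were 0.73 apart, and the knockout arrays spread less than the wildtype arrays. The means were 9.35 ± 0.09 and 10.20 ± 0.02 (SD, n = 3), so knockout minus wildtype was 0.84 on the log2 scale (SE 0.06, limma adjusted p = 0.000349), or 1.80-fold. Counting it, 1.18% of all genes had a rise as large. The closest paralog, Myo1f, a myosin of blood cells, was at 6.55 ± 0.05 and 6.54 ± 0.01 within the background range. Of 6 other class I myosins measured (16.7% called beside 12.1% of all genes), Myo1d rose by 0.46 (SE 0.07). Its call was lost without wildtype replicate 3 (limma adjusted p = 0.0511). The other 5 did not pass, running from -0.03 to 0.05. Of 7 measured partners, Dnm1 and Dnm2 passed as described above, none was called lower and 5 did not pass. That is 28.6% called, beside 12.1% of all genes and 23.9% of genes above the background range. Among the 5, Synj1 was at -0.29 (SE 0.07, limma adjusted p = 0.0519), and its groups did not overlap. Without any 1 array, 0 or 1 partner was called higher and at most 1 lower.

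Fat1 (TC0800000509.mm.1, chromosome 8) encodes a giant protocadherin of the slit diaphragm that recruits actin regulators of the ENA/VASP family, and its recessive mutations cause a syndrome with nephropathy. Its values were 12.19, 12.27 and 12.22 in wildtype and 12.75, 12.71 and 12.79 in knockout, without overlap. The means were 12.22 ± 0.04 and 12.75 ± 0.04 (SD, n = 3), so knockout minus wildtype was 0.53 on the log2 scale (SE 0.05, limma adjusted p = 0.000923), or 1.44-fold, a rise reached by 2.76% of all genes. No paralog rose. Fat4, a planar polarity cadherin, was at 9.86, 10.15 and 9.96 in wildtype and 9.36, 9.36 and 9.38 in knockout, a fall of 0.63 (SE 0.08, limma adjusted p = 0.0035). Fat2 fell by 0.52 (SE 0.05) within the background range, and Fat3 differed by 0.03 (95% confidence interval -0.15 to 0.22). Of 8 ENA/VASP and other partners, Enah rose, none fell and 7 did not pass. Their called share was 12.5%, beside 12.1% of all genes and 23.9% of genes above the background range. Enah, which encodes Mena, went from 9.75 ± 0.08 to 10.45 ± 0.02.

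**Figure D3:**
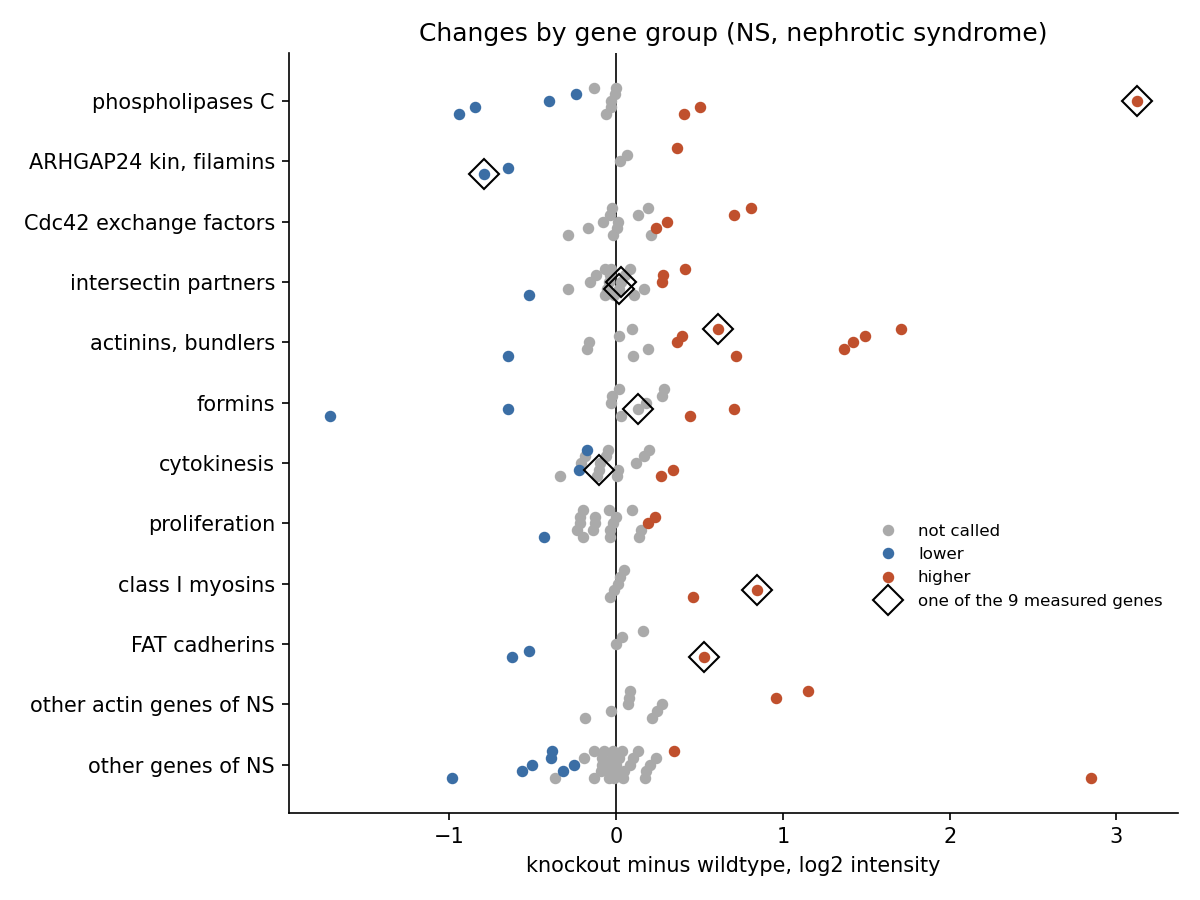
Each point is 1 gene, placed by its knockout minus wildtype difference in log2 intensity (x axis) within its group (y axis, points spread vertically for legibility); red and blue mark genes called higher and lower by limma at an adjusted p under 0.05, grey those not called, and open diamonds the measured disease genes. Plce1 lies apart from the other phospholipases C, whose highest value is 0.50. In the group of actinins and bundlers, LIM-domain genes included, 7 genes beside Actn4 are red.

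Other genes of inherited nephrotic syndrome were measured in the same arrays. Of 10 measured genes of this disease that also act on the cytoskeleton or as scaffolds, Kank1 and Dlc1 rose, none fell and 8 were not called (median 0.15). The called genes were thus 2 of 10, beside 12.1% of all genes and 23.9% of genes above the background range. Dlc1, whose product sits at focal adhesions, rose from 8.40 ± 0.04 to 9.36 ± 0.05. Among the 8 were Kank2 at 0.28, Tns2 at 0.24, Cd2ap at 0.08 and Cdk20 at -0.19, the last with both means in the background range. At an unadjusted p under 0.05 by limma, 5 of the 10 were higher and 1 was lower. There were 36 measured disease genes of other classes, such as slit diaphragm, matrix, coenzyme Q and nuclear pore genes. Of these, 2 rose, 7 fell and the other 27 were not called (25.0% called, median -0.03). Emp2, a membrane protein gene, rose from 7.59 ± 0.32 to 10.44 ± 0.11, its wildtype mean within the background range. The X-linked collagen gene Col4a5 fell by 0.98 (SE 0.06), beside a median of -0.22 for its chromosome. The lipid kinase gene Dgke fell by 0.51 (SE 0.07) and the receptor gene Cubn by 0.56 (SE 0.08) within the background range. Without wildtype replicate 3 the counts were 1 and 4 in place of 2 and 7. Whether the shares differ between these classes was not tested.

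Some facts of the 2 lines bear on all of these values. Nck1 was at 8.63 ± 0.10 and 8.12 ± 0.06 (log2 fold change -0.51, SE 0.07, limma adjusted p = 0.00384) and Nck2 at 7.48 ± 0.13 and 7.24 ± 0.04 within the background range (-0.24, adjusted p = 0.0928), and where the probes lie relative to the deleted parts is not given. Xist, which marks cells with an inactive X chromosome, was at 12.19 ± 0.04 in wildtype and 6.01 ± 0.05 in knockout. The Y-linked Uty was at 5.21 ± 0.14 and 9.90 ± 0.07. By these genes the wildtype line was female and the knockout line male, so genotype, line and sex cannot be told apart. Of 8 measured podocyte markers, none passed, and for 4, with Nphs1 and Wt1 among them, both means were in the background range. Of 11 mesangial, pericyte and fibroblast markers 6 rose and none fell (54.5% called beside 12.1% of all genes), and 5 had both means within the background range. Their mean log2 level ran from 7.27 to 7.36 over wildtype arrays and from 8.82 to 8.96 over knockout arrays. Of 11 tubular markers 5 fell and none rose (45.5% called), with 6 within the background range. Mean levels ran from 8.60 to 8.74 over wildtype arrays and from 8.05 to 8.10 over knockout arrays. Among those that fell were Aqp1 (-3.50), Lrp2, Cdh16 and Pax8. Their wildtype means of 12.92, 11.76, 11.60 and 11.42 were above the background range. The part of these markers in the results for the disease genes was not tested. In such samples a smaller share of cells expressing a gene and less RNA per cell cannot be told apart.

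The genes whose 6 array values, taken as differences from each gene's own wildtype mean, lay closest to those of the leading members were found among 19067 protein-coding genes by root mean square distance. Closest to Plce1 were the fibulin gene Fbln2 (distance 0.05), Col1a1, which encodes a chain of type I collagen (0.10), and the cyclooxygenase gene Ptgs2 (0.10), with log2 fold changes of 3.08, 3.03 and 3.15. For Myo1e they were the transcription factor gene Myc (distance 0.03), Tnfrsf21 and Frmd6 (0.05 each). For Arhgap24 they were Ugt2b37, the mitochondrial fatty acid enzyme gene Cpt2 and the respiratory chain gene Cox7b (0.04 each). For Actn4 they were the hyaluronan receptor gene Cd44, the transcription factor gene Sall1 (0.02 each) and the folate enzyme gene Mthfd1l (0.03). With 6 arrays in 2 groups this measure is set mostly by the size of the difference between the lines.

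The 5 calls did not rest on a single array. Leaving out each of the 6 arrays in turn, Plce1 stayed between 3.10 and 3.16, Myo1e between 0.80 and 0.89, Actn4 between 0.60 and 0.63, Fat1 between 0.51 and 0.55 and Arhgap24 between -0.85 and -0.76, with limma adjusted p values of at most 0.0105. Inf2 ran from 0.05 to 0.18, Anln from -0.19 to -0.06, Itsn1 from 0.01 to 0.04 and Itsn2 from -0.03 to 0.07, none passing.

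**Figure D4:**
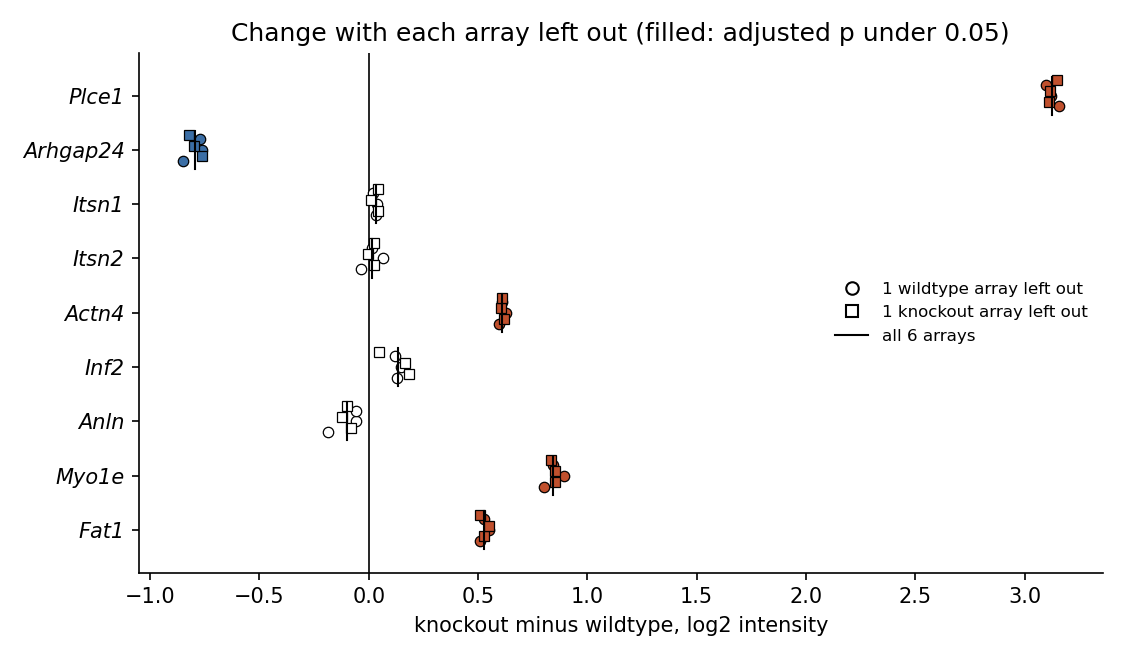
Knockout minus wildtype difference in log2 intensity (x axis) for each of the 9 genes (y axis) with 1 wildtype array (circles) or 1 knockout array (squares) left out, filled where the limma adjusted p is under 0.05; the vertical tick is the value from all 6 arrays. All 6 points of Plce1, Arhgap24, Actn4, Myo1e and Fat1 are filled, and those of Itsn2 fall on both sides of 0.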

How the data were processed

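Each value analysed is the log2 intensity of a probe set on an array, as deposited. The submitters' processing notes name affy 1.44.0 and RMA, so the authors background-corrected, quantile-normalized and summarised the probes; further steps are not known here.

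Of 32750 probe sets with a platform symbol, 30604 named 1 gene (a repeated symbol counting once) and 2146 named several and were not used. Symbols were updated through a RefSeq table of assembly GRCm38.p6 (1135 changed). Where a gene had more than 1 probe set (429 genes), that with the highest mean over the arrays stood for it, which gave 30063 genes. The means of 23 background probe sets ran from 2.33 to 7.78, and a gene mean of 7.78 or less counts as in the background range, as for 62.7% of genes. Near-identical paralogs can share probes.

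Knockout arrays were set against wildtype arrays with limma 3.58.1 (lmFit, eBayes; R 4.3.3), two-sided, without covariate or filter, and p-values were adjusted over all genes by Benjamini-Hochberg with a threshold of 0.05. The code was tested on simulated data. Precision is limited by the number of arrays. The members, gene lists and naming rule were chosen with earlier results of these data known. The rule names all members and their direct paralogs, up to 4 called genes of each list with the largest change, and the 3 closest genes of 4 members; other genes named, and the motifs searched, were chosen after values were seen. Some gene groups examined are not reported here. Counts over a list leave its members of the disease set out. Figures were drawn with matplotlib 3.10.9.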

Additional observations from a re-analysis of the deposited data

How the results depend on the processing

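All 16 alternatives kept 4 members called higher and 1 called lower, with the member values outside the left-out arrays between 3.11 and 3.14 for Plce1, 0.83 and 0.84 for Myo1e, 0.58 and 0.61 for Actn4, 0.45 and 0.54 for Fat1 and -0.79 and -0.75 for Arhgap24. The alternatives were each array left out, the replicate block, a second quantile normalization, chromosome medians taken off, filters at the background range and at the median level, a trended and a robust prior, the mean of all probe sets, ties left out and a threshold of 0.01. Array weights were not run as an alternative, since their estimation did not converge. The count of all genes called higher, 1540, became 2394 with chromosome medians taken off and 845 at a threshold of 0.01, where 1095 in place of 2103 were lower. Leaving out 1 array gave 874 to 1441 higher and 1191 to 1994 lower, the lowest without wildtype replicate 3 (lower also without knockout replicate 1). Of 80 called genes that the naming rule chose, 20 lost their call under some alternative and none reversed. With 1 array left out, the uncalled Itsn2 ran from -0.0333 to 0.0671, Myo1f from -0.0304 to 0.0154, Fat3 from -0.0452 to 0.0945 and Arhgap25 from -0.0463 to 0.0873. Myo1f was also at 0.0070 with chromosome medians taken off and Fat3 at -0.0011 after quantile normalization. The cause was not tested.

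Deviations of same-numbered arrays correlated at 0.345, 0.271 and 0.041 for replicates 1, 2 and 3, those of different-numbered arrays at -0.342 to 0.053. Replicates 1 and 2 thus lay above that range and replicate 3 inside it. Whether the numbers pair the arrays is not known here, and the main fit had no block. With the replicate block 1649 genes were higher and 2085 lower, and 4 members were higher and 1 lower. Signal over background limits Plce1 in wildtype and the genes named as within the background range.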
